A study of Mus musculus with 24 samples.

Results

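The genes that build autophagosomes were followed in hepatocytes of old mice to ask whether their transcripts differed with a high-fat diet and with rapamycin, an inhibitor of the kinase mTOR. The set held 38 genes chosen by name for their known place in the autophagy machinery, of 55421 genes in the tables. Earlier results of these data were known when the genes were chosen. All 38 passed the filter on low counts that left 13847 genes for testing. The animals were 24 C57BL/6J mice. All were male. Their food held 42 ppm of rapamycin in encapsulated form (eRapa) or the vehicle from 4 months of age. At 18 months, 8 vehicle animals stayed on the normal diet (ND+veh), while 7 vehicle animals (HFD+veh) and 9 eRapa animals (HFD+eRapa) went onto a high-fat diet, with 60% of calories from fat, for 9 weeks. Hepatocytes came from perfused livers, so other liver cells could remain in the preparations. No group had rapamycin on the normal diet after the diet change. HFD+eRapa and ND+veh animals thus differed in both diet and drug, which cannot be told apart in that comparison. The drug had been given long before the diet changed.

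Autophagy delivers cytoplasm and organelles to lysosomes inside a membrane vesicle, the autophagosome. The ULK kinase complex starts it, a lipid kinase complex around the Beclin protein marks the membrane, Atg9 and the Atg2 and WIPI proteins help the membrane grow, and a set of enzymes joins the small Atg8 proteins, among them LC3, to the lipid of that membrane. Cargo receptors then tie ubiquitin-marked proteins or mitochondria to the Atg8 proteins. In the liver the pathway is known for supplying amino acids during fasting and for clearing damaged mitochondria, and mTOR complex 1 is known to hold the ULK complex back through phosphorylation, a step that transcript counts do not measure.

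Libraries held 17.7 to 25.9 M counts (M, 1000000), and single members of the set had 59 to 24998 counts per library. Levels are given in CPM, counts of a gene per M counts of the library, with library sizes scaled by TMM, and a gene is termed higher or lower where the edgeR quasi-likelihood test gave a Benjamini-Hochberg adjusted p under 0.05 over all 13847 genes. The summed level of 10 hepatocyte markers was 64150 to 167822 CPM in ND+veh, 101530 to 170396 CPM in HFD+veh and 60379 to 156148 CPM in HFD+eRapa. Of these markers, 2 were lower under HFD+veh than ND+veh, and 3 were higher under HFD+eRapa than HFD+veh. The summed level of 10 macrophage markers ran from 41.7 to 1185 CPM in ND+veh, from 165 to 4545 CPM in HFD+veh and from 13.5 to 995 CPM in HFD+eRapa. Of these macrophage markers, 4 were higher under HFD+veh than ND+veh, and 8 were lower under HFD+eRapa than HFD+veh. All 8 endothelial and all 8 stellate cell markers were also lower under HFD+eRapa than HFD+veh. Higher under HFD+veh than ND+veh were all 3 tested markers of bile duct cells, 3 of 4 tested neutrophil markers and the 1 tested lymphocyte marker. None of the defining markers was at 0 in all animals of a group except the neutrophil gene Ly6g, which was at 0 in ND+veh and in HFD+eRapa. In such bulk libraries, fewer cells of a type and less RNA per cell cannot be told apart.

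In HFD+veh against ND+veh, 9 of the 38 genes differed, against 25.9% of all genes tested. Lower on the high-fat diet were Atg13, Atg2b, Wipi1, Wipi2, Atg16l2, Map1lc3a and Gabarapl1, 7 genes, while 9.86% of all genes were lower. Atg5 and Atg10 were higher, while 16.0% of all genes were higher. Over the set the median log2 fold change was -0.07, and over all genes tested 0.05. No member had groups that did not overlap, a pattern seen in 2.44% of all genes.

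In HFD+eRapa against HFD+veh, 13 of the 38 genes differed, against 32.0% of all genes. Higher with eRapa were Ulk2, Atg13, Atg101, Ambra1, Wipi2, Atg7, Atg12, Atg16l1, Map1lc3a, Gabarapl2 and Optn, which is 28.9% of the set, while 10.9% of all genes were higher. Pik3c3 and Fundc1 were lower, while 21.1% of all genes were lower. The median log2 fold change was 0.21 over the set and -0.04 over all genes, and 31 of the 38 estimates lay above 0. Atg7 alone had groups that did not overlap, as 2.59% of all genes did.

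In HFD+eRapa against ND+veh, 10 of the 38 genes differed, against 13.5% of all genes. Ulk2, Atg5, Atg7, Atg10, Atg12, Gabarapl2, Optn and Bnip3 were higher, 21.1% of the set, while 6.93% of all genes were higher. Atg16l2 and Sqstm1 were lower, while 6.54% of all genes were lower. The median log2 fold change was 0.12 over the set and -0.03 over all genes. In the separate FPKM table (fragments per kilobase and M fragments), limma on log2(FPKM + 1) gave a median of -0.02 over the set and -0.09 over all genes, and it called 3 of these 10 genes (Atg16l2, Sqstm1 and Optn) and 9.76% of all genes. The groups did not overlap for Atg7, Atg12 and Optn, all higher with eRapa, and for Atg16l2, which was lower, against 3.37% of all genes without overlap.

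Over the 3 comparisons, 21 members differed at least once and 17 never did. In the single comparisons, 25.9%, 32.0% and 13.5% of all genes differed. The share of all genes that differed at least once is not given here, so the 21 are no result about the set. The genes that differed fell into a few patterns. Ulk2, Atg7, Atg12, Gabarapl2 and Optn were higher in eRapa animals than in either vehicle group. Atg13, Wipi2 and Map1lc3a were lower under HFD+veh than ND+veh and higher under HFD+eRapa than HFD+veh, but these comparisons share the HFD+veh animals and so are not independent of each other. Atg5 and Atg10 were higher, and Atg16l2 lower, than ND+veh in both high-fat groups.

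**Figure D1:**
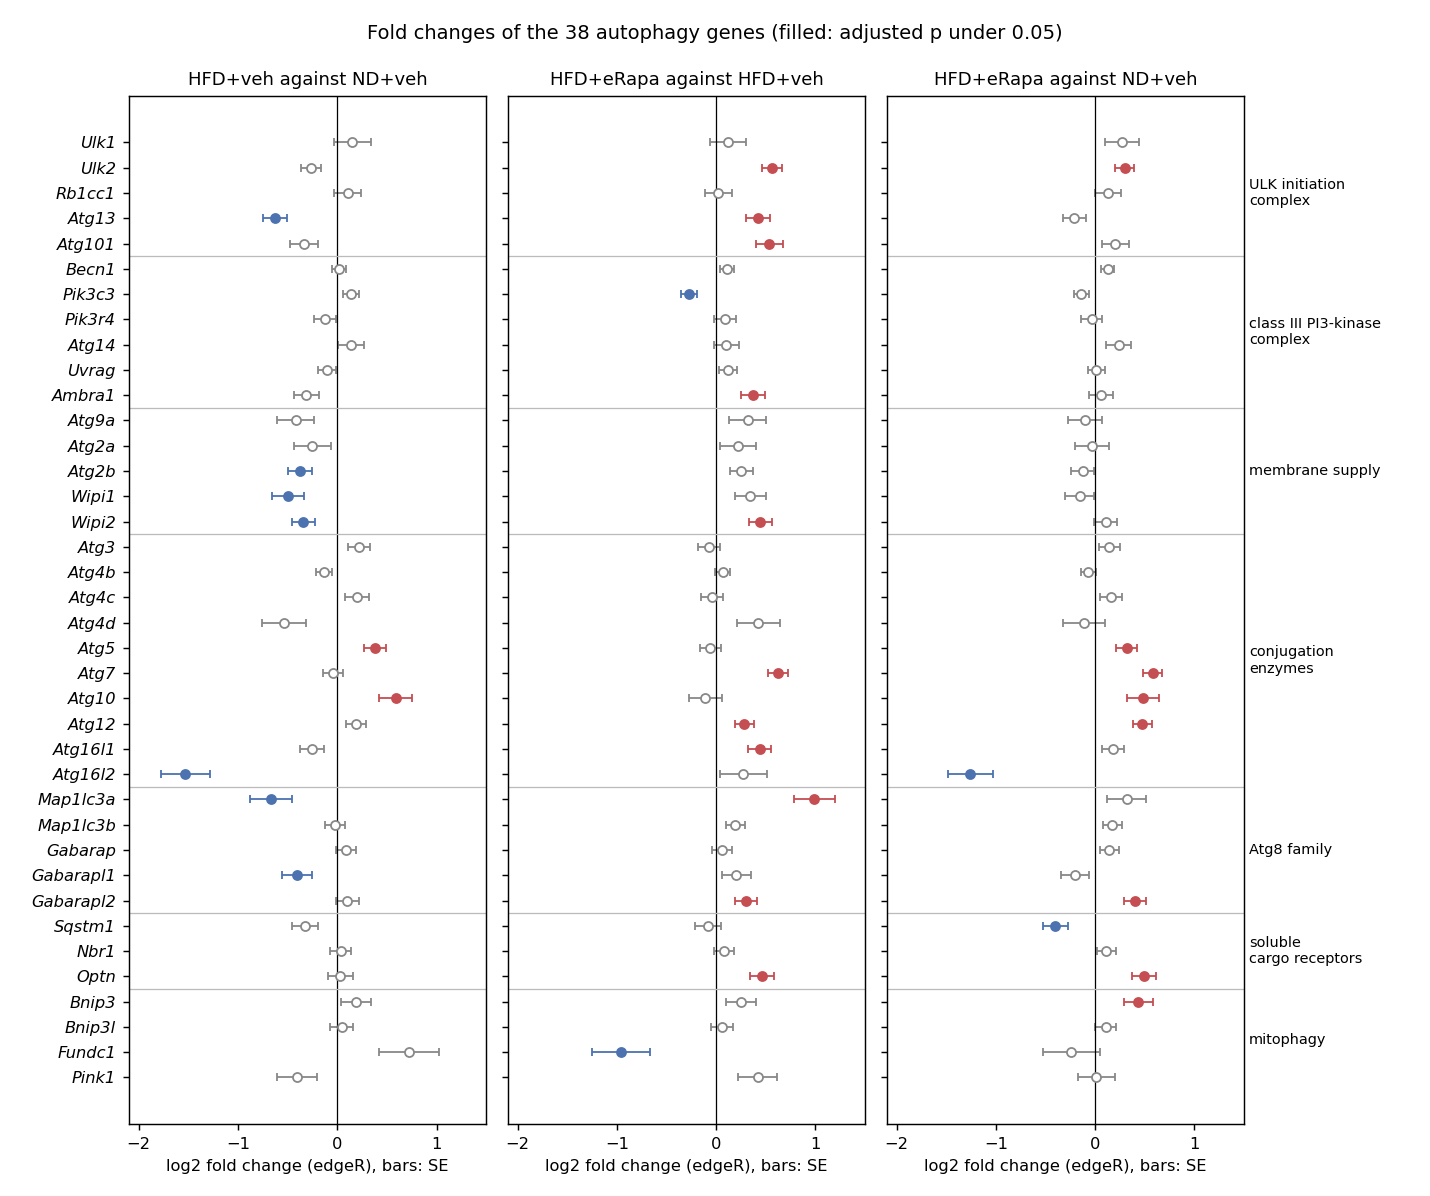
Log2 fold changes of the 38 autophagy genes (x axis; error bars, SE) in the 3 comparisons, with genes grouped by role on the y axis and filled points for an adjusted p under 0.05 (red, higher; blue, lower). The filled points of the middle panel lie right of 0 for 11 genes and left of it for Pik3c3 and Fundc1.

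These counts differed when an immune marker score, itself different between the groups, was added to the model and when single animals were left out. The score was the mean over 15 immune markers of log2 CPM, scaled for each marker by its mean and SD over the animals. These were 10 macrophage, 4 neutrophil and 1 lymphocyte markers. With the score in the model, 2 of the 9 diet calls (Atg13 and Atg16l2) were left, while 8.20% of all genes were called. Of the 13 calls for HFD+eRapa against HFD+veh, 3 (Ulk2, Atg7 and Atg12) were left, while 6.30% of all genes were called. For HFD+eRapa against ND+veh, where 0 of 10 macrophage and 5 of 8 stellate markers differed, the same model called 10 members and 19.8% of all genes. HFD+veh replicate 6, which had the highest macrophage sum (4545 CPM), was the lowest or highest animal of its group for 27 of the 38 members. Without it, 5 of the 9 diet calls, 10 of the 13 eRapa calls against HFD+veh and 9 of the 10 against ND+veh were left, and 15.1%, 23.5% and 16.0% of all genes were called. Without HFD+veh replicate 1 or 2, the animals with the lowest macrophage sums of their group (165 and 166 CPM), 14 and 15 members differed with the diet, while 30.4% and 32.0% of all genes did. For HFD+eRapa against ND+veh, leaving out 1 library gave 5 to 10 members, while 10.6% to 16.0% of all genes were called.

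**Figure D2:**
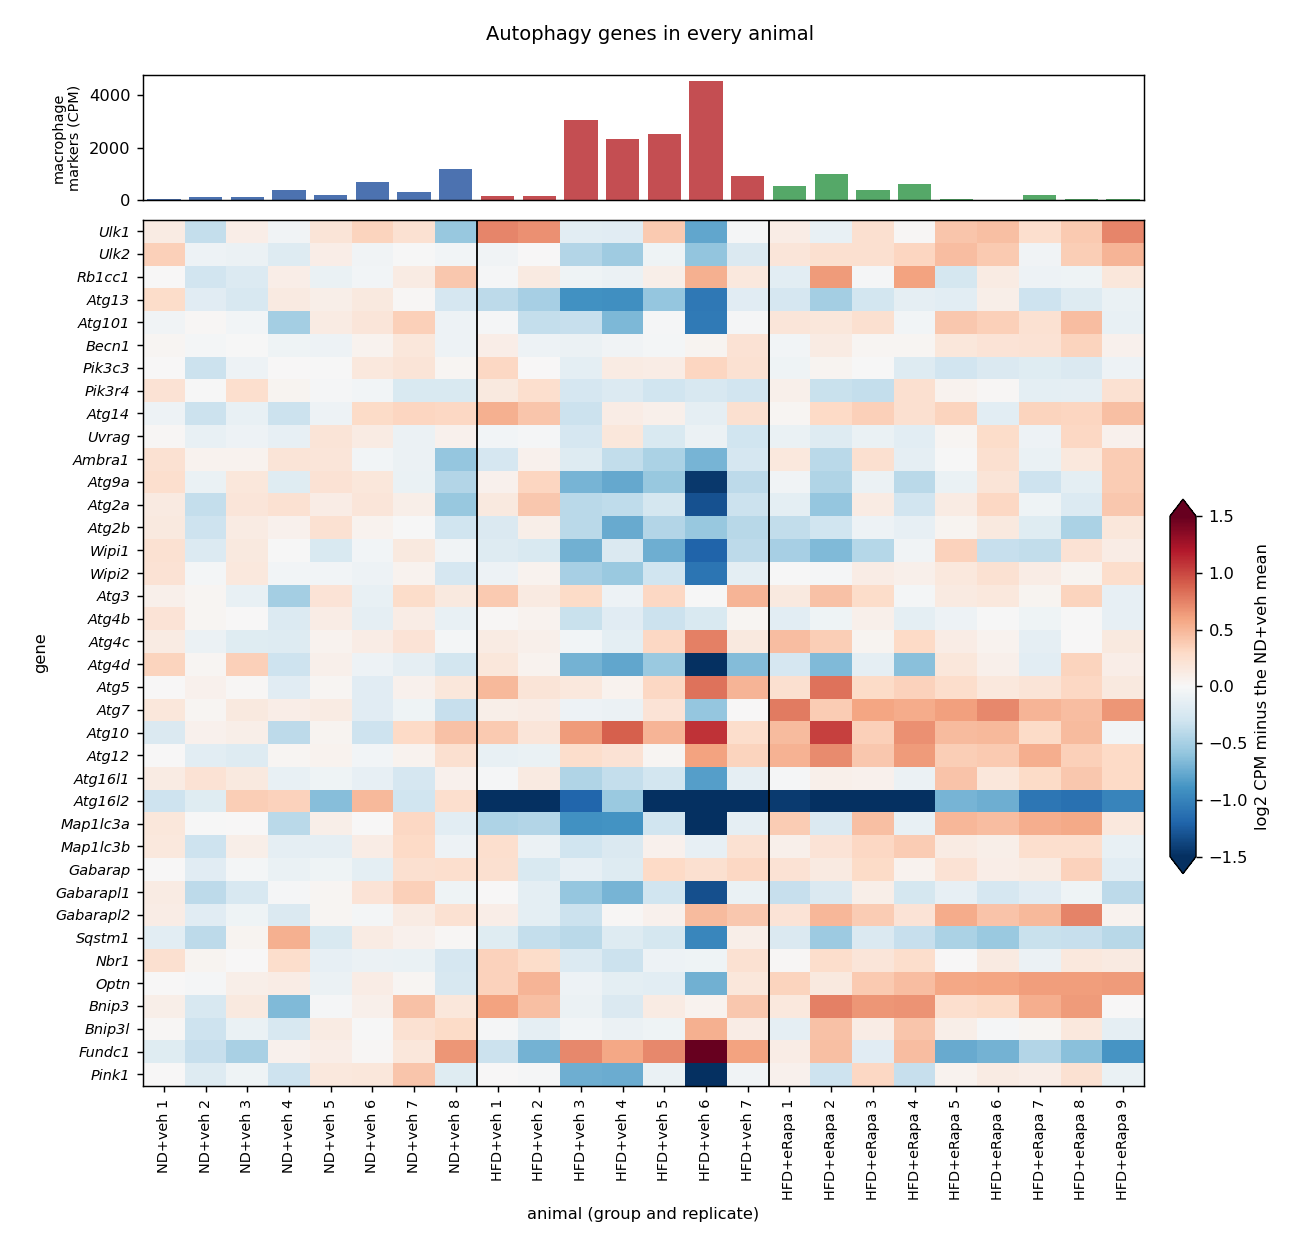
Each member in each animal (columns) as log2 CPM minus the ND+veh mean, with the summed level of 10 macrophage markers in CPM above it (blue, ND+veh; red, HFD+veh; green, HFD+eRapa); differences beyond 1.5 take the end colour. HFD+veh replicate 6 has the tallest bar, and Atg7 is above the ND+veh mean in all 9 eRapa animals.

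The members varied most among the animals of the HFD+veh group. The within-group SD of log2 CPM was largest in HFD+veh for 32 of the 38 genes. The median SD over the members was 0.20 in ND+veh, 0.30 in HFD+veh and 0.19 in HFD+eRapa. Without replicate 6 it was 0.25 in HFD+veh. All genes tested followed the same order, with median SDs of 0.32, 0.45 and 0.31.

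Within the ULK complex, which starts autophagosome formation, 3 of 5 genes were higher under HFD+eRapa than HFD+veh, and 1 was lower under HFD+veh than ND+veh. Of all genes, 10.9% and 9.86% were. Ulk2 encodes a kinase related to Ulk1. Its counts had a low, median and high of 62.7, 69.4 and 91.7 CPM in ND+veh, 47.6, 61.9 and 71.8 CPM in HFD+veh and 69.2, 90.2 and 102 CPM in HFD+eRapa. All but 1 of the 9 eRapa animals lay above every HFD+veh animal. The log2 fold change of Ulk2 was 0.56 (SE 0.10, adjusted p = 0.00056) against HFD+veh and 0.30 (SE 0.10, adjusted p = 0.0456) against ND+veh. The call against HFD+veh held in each fit that left out 1 library, whereas the one against ND+veh was lost in 17 of 24 such fits, with adjusted p up to 0.12.

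Atg13, the adaptor that binds the ULK kinases, had 58.4, 72.3 and 84.6 CPM (lowest, median, highest) in ND+veh, 33.2, 46.7 and 61.8 CPM in HFD+veh and 49.0, 60.9 and 74.2 CPM in HFD+eRapa. Of the 7 HFD+veh animals, 6 were below every ND+veh animal, and the eRapa median lay between those of the vehicle groups, with 4 of 9 eRapa animals above every HFD+veh animal and 3 below every ND+veh animal. Its log2 fold change was -0.63 (SE 0.12, adjusted p = 0.00128) for HFD+veh against ND+veh and 0.42 (SE 0.12, adjusted p = 0.00981) for HFD+eRapa against HFD+veh. Against ND+veh the eRapa estimate was -0.21 (95% confidence interval -0.44 to 0.03).

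Atg101, the partner that stabilises Atg13, had medians of 28.8 CPM in ND+veh, 22.8 CPM in HFD+veh and 34.0 CPM in HFD+eRapa, with ranges of 20.4 to 37.1, 13.9 to 28.7 and 26.9 to 40.0 CPM. It was higher under HFD+eRapa than HFD+veh by 0.54 log2 units (SE 0.14, adjusted p = 0.00561), and 7 of 9 eRapa animals exceeded every HFD+veh animal. Ulk1, the kinase most studied as the target of mTOR, had medians of 69.4, 63.9 and 76.5 CPM in the same order and did not differ. Its interval for HFD+eRapa against HFD+veh ran from -0.25 to 0.49 on the log2 scale. Rb1cc1, the large scaffold of the complex, had medians of 43.5, 46.7 and 43.6 CPM, and its largest estimate was 0.13 (HFD+eRapa against ND+veh).

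Of the 6 genes of the lipid kinase complex, 2 differed between HFD+eRapa and HFD+veh (33.3%, against 32.0% of all genes) and none in the other comparisons. There, 25.9% (HFD+veh against ND+veh) and 13.5% (HFD+eRapa against ND+veh) of all genes differed. Becn1, which encodes Beclin, the regulatory core of the complex, had medians of 45.7, 45.2 and 50.4 CPM in ND+veh, HFD+veh and HFD+eRapa. Its intervals were -0.13 to 0.16 for the diet and -0.03 to 0.25 for eRapa on the high-fat diet. In the annotation, 43.9% of the exon bases of Becn1 are also exon bases of Cntd1 on the opposite strand, and whether the counting used strand was not given in the sources used here.

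Pik3c3, the catalytic subunit, was lower in HFD+eRapa (15.4, 16.7 and 19.3 CPM) than in HFD+veh (17.1, 20.5 and 23.6 CPM), with 15.1, 18.9 and 21.5 CPM in ND+veh. The groups overlapped, and the log2 fold change was -0.28 (SE 0.08, adjusted p = 0.013). Without HFD+veh replicate 6, the highest animal, it was -0.22 with adjusted p = 0.0661. Ambra1, a scaffold that links Beclin to the ULK complex, moved in the other direction, from a median of 19.6 CPM in HFD+veh to 25.9 CPM in HFD+eRapa, with 24.2 CPM in ND+veh. Its log2 fold change was 0.37 (SE 0.12, adjusted p = 0.0245), and 0.33 with adjusted p = 0.0504 without HFD+veh replicate 6. Pik3r4, Atg14 and Uvrag, the regulatory subunits, gave estimates between -0.12 and 0.24 in the 3 comparisons, and none differed.

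All 5 genes of membrane supply had estimates below 0 on the high-fat diet, from -0.50 to -0.25. Of these genes 3 were lower, while 9.86% of all genes were. The lower genes were Wipi1 and Wipi2, which bind the lipid made by the Beclin complex, and Atg2b, one of the lipid transfer proteins. All 5 estimates were above 0 for HFD+eRapa against HFD+veh, where only Wipi2 was higher, while 10.9% of all genes were. These comparisons share the HFD+veh animals, so their opposite signs are not independent of each other. For HFD+eRapa against ND+veh, 4 of the 5 estimates were below 0 and 0 genes differed, against 13.5% of all genes. HFD+veh replicate 6 was the lowest animal of its group for Wipi1, Wipi2, Atg9a and Atg2a.

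Wipi2 had 63.7, 74.3 and 88.5 CPM (lowest, median, highest) in ND+veh, 35.4, 62.0 and 78.8 CPM in HFD+veh and 75.1, 82.0 and 91.3 CPM in HFD+eRapa. Of the 9 eRapa animals, 6 exceeded every HFD+veh animal. The log2 fold change was 0.45 (SE 0.12, adjusted p = 0.00605) for HFD+eRapa against HFD+veh. The diet difference of -0.34 (SE 0.12, adjusted p = 0.0375) was lost in 9 of 24 fits that left out 1 library, and without HFD+veh replicate 6 it was -0.27 with adjusted p = 0.058.

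Wipi1 fell from a median of 15.1 CPM in ND+veh to 11.6 CPM in HFD+veh and was 11.99 CPM in HFD+eRapa, a log2 fold change of -0.50 for the diet (SE 0.16, adjusted p = 0.0259). Atg2b had medians of 31.2, 22.3 and 27.4 CPM and a log2 fold change of -0.38 for the diet (SE 0.12, adjusted p = 0.0253). Leaving out HFD+veh replicate 5 for Wipi1 or ND+veh replicate 5 for Atg2b took the adjusted p to 0.050 and 0.051. Atg9a, the membrane protein of the seed vesicles, and Atg2a had diet estimates of -0.42 (adjusted p = 0.0995) and -0.25 (adjusted p = 0.327). In the annotation, 31.8% of the exon bases of Atg9a are also exon bases of Gm29253 on the same strand.

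Of the 10 conjugation genes, 5 differed in HFD+eRapa against ND+veh, 4 higher and 1 lower, and for 3 of them the groups did not overlap. Of all genes, 13.5% differed there and 3.37% had no overlap. For HFD+veh against ND+veh and for HFD+eRapa against HFD+veh, 3 of the 10 differed in each, against 25.9% and 32.0% of all genes. Atg7, Atg12 and Atg16l1 were higher with eRapa than on the high-fat diet alone, and Atg5, Atg10 and Atg16l2 differed with the diet. Atg7 is the activating enzyme for Atg12 and for the Atg8 proteins, Atg10 and Atg3 are the transfer enzymes, and Atg12 joins Atg5 and Atg16l1 into the complex that places Atg8 proteins on the membrane.

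Atg7 (ENSMUSG00000030314.16, GRCm38 chr6:114643097-114860614, plus strand) was higher in every eRapa animal than in every animal of the vehicle groups. The lowest, median and highest counts were 26.8, 35.7 and 38.5 CPM in ND+veh, 22.8, 34.3 and 39.4 CPM in HFD+veh and 44.3, 51.4 and 58.3 CPM in HFD+eRapa. The vehicle groups lay on top of each other, with a log2 fold change of -0.04 (95% confidence interval -0.25 to 0.17). Against HFD+veh the eRapa difference was 0.62 (SE 0.10, adjusted p = 0.000158) and against ND+veh 0.58 (SE 0.09, adjusted p = 0.000173), and these calls held without any 1 library and with the immune marker score in the model (0.48, adjusted p = 0.00753, and 0.57, adjusted p = 4.13e-05).

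In the FPKM table the difference of Atg7 was smaller. Its lowest, median and highest values were 10.9, 14.0 and 18.8 FPKM in ND+veh, 11.5, 13.1 and 21.8 FPKM in HFD+veh and 14.0, 19.3 and 23.8 FPKM in HFD+eRapa, so the groups overlapped. On the log2(FPKM + 1) scale, limma gave 0.33 (adjusted p = 0.0783) against HFD+veh and 0.35 (adjusted p = 0.0977) against ND+veh. In this fit Atg12 and Gabarapl2 also missed the threshold in these comparisons, and Ulk2 missed it against ND+veh, so that 4 of the 5 genes higher than in either vehicle group were not called in both. Optn was called in both, but without the filter on low FPKM it missed the threshold against ND+veh (adjusted p = 0.0855).

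Atg12, the small protein that Atg7 activates, had 25.8, 30.0 and 34.9 CPM in ND+veh, 27.3, 34.4 and 45.0 CPM in HFD+veh and 36.4, 39.3 and 48.5 CPM in HFD+eRapa. All 9 eRapa animals exceeded all 8 ND+veh animals, with a log2 fold change of 0.47 (SE 0.09, adjusted p = 0.00116). Against HFD+veh it was 0.28 (SE 0.10, adjusted p = 0.0288), a call lost without HFD+veh replicate 1, 2 or 5 or HFD+eRapa replicate 2 (adjusted p up to 0.059). Without HFD+veh replicate 6 it was 0.39 (adjusted p = 0.00502). Atg16l1 had medians of 27.9, 23.1 and 31.4 CPM and was higher under HFD+eRapa than HFD+veh by 0.44 log2 units (SE 0.11, adjusted p = 0.00626).

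Atg16l2 (ENSMUSG00000047767.17, chr7:101263034-101302251, minus strand), a relative of Atg16l1 with a less settled role, showed the largest diet difference of the set. It had 11.8, 19.1 and 25.9 CPM (lowest, median, highest) in ND+veh, 3.29, 6.43 and 12.6 CPM in HFD+veh and 5.37, 8.41 and 11.3 CPM in HFD+eRapa. All HFD+veh animals but replicate 4 lay below every ND+veh animal, as did all 9 eRapa animals. The log2 fold change was -1.53 (SE 0.25, adjusted p = 0.000273) for HFD+veh against ND+veh and -1.26 (SE 0.23, adjusted p = 0.00051) for HFD+eRapa against ND+veh. Between the high-fat groups it was 0.27 (95% confidence interval -0.22 to 0.76). These calls held in every alternative fit and without any 1 library.

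Atg5 and Atg10 were higher in the high-fat groups. Atg5 had medians of 47.0, 57.5 and 55.6 CPM in ND+veh, HFD+veh and HFD+eRapa, with a log2 fold change of 0.38 (SE 0.11, adjusted p = 0.0167) for the diet and 0.32 (SE 0.10, adjusted p = 0.0426) for HFD+eRapa against ND+veh. Atg10, the least counted member with medians of 4.05, 5.60 and 5.44 CPM, gave 0.59 (SE 0.17, adjusted p = 0.0154) and 0.48 (SE 0.16, adjusted p = 0.0464). HFD+veh replicate 6 was the highest animal of its group for each gene. Without it the diet differences were 0.26 (adjusted p = 0.101) for Atg5 and 0.45 (adjusted p = 0.0667) for Atg10. The Atg5 diet call was also lost without ND+veh replicate 1 or 4, and the calls against ND+veh in eRapa animals were lost in 14 of 24 fits without 1 library for Atg5 and in 16 for Atg10, with adjusted p up to 0.12 and 0.10. Atg3 and the proteases Atg4b, Atg4c and Atg4d, which trim Atg8 proteins, did not differ. The largest of their estimates was -0.54 for Atg4d on the high-fat diet (95% confidence interval -0.997 to -0.07, adjusted p = 0.0767), with 5.31 CPM in HFD+veh replicate 6 and 13.7 to 26.5 CPM in the other HFD+veh animals. In the annotation, 19.3% of the exon bases of Atg4d are also exon bases of Kri1 on the opposite strand.

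**Figure D3:**
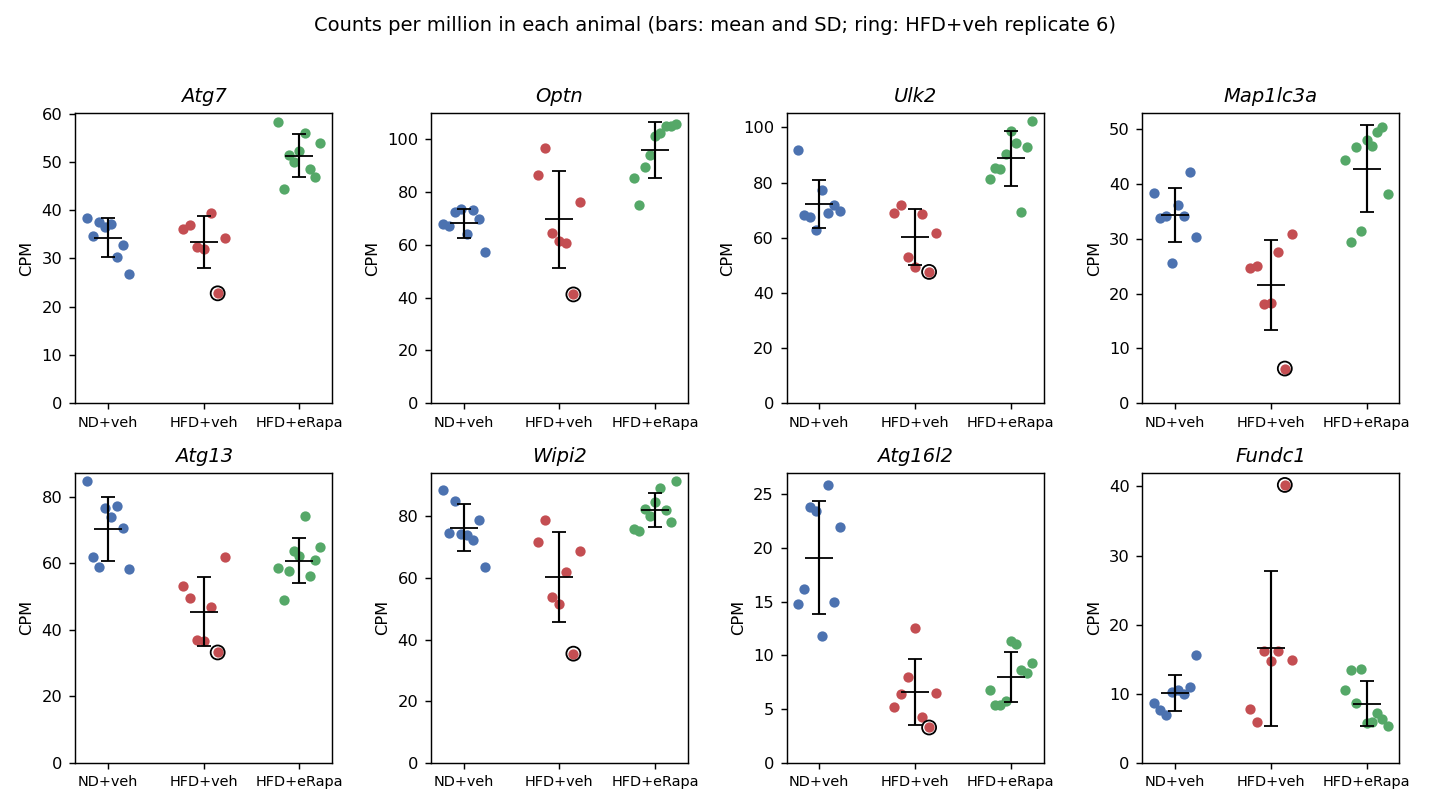
CPM of 8 members in each animal (points; y axis from 0) for ND+veh, HFD+veh and HFD+eRapa, with mean and SD as bars and HFD+veh replicate 6 ringed. Atg7 shows no overlap of the eRapa animals with the vehicle animals. The ringed animal is the highest of HFD+veh for Fundc1. It is the lowest of HFD+veh for Atg7, Optn, Ulk2, Map1lc3a, Atg13, Wipi2 and Atg16l2.

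Upstream sequences from RefSeq promoter entries are shown for Atg7, Atg5, Bnip3, Ulk2, Gabarapl2 and Optn, all higher under HFD+eRapa than ND+veh. They bear on a shared motif, the E-box CACGTG, which transcription factors of the TFEB and MITF family are known to bind. Atg5 and Bnip3 did not differ between HFD+eRapa and HFD+veh. Left out were, among others, Atg10, also higher than ND+veh, and Atg13, Atg101 and Ambra1, higher under HFD+eRapa than HFD+veh. These members have an entry without the motif, so its share among the sequences shown is no result. Of the 38 members, 31 had an entry (250 bases before to 50 after the start site), and 5 of them (16.1%) held CACGTG: Atg14, Atg3, Atg5, Atg7 and Bnip3. Among 27025 genes with an entry the share was 8.09%. The AP-1 motif TGACTCA and the forkhead motif GTAAACA, searched on both strands, were in 0 of 31 members, against 5.95% and 4.05% of all genes. Of the 5 genes higher than in either vehicle group, Atg12 had no entry, Atg7 held CACGTG and Ulk2, Gabarapl2 and Optn did not. The bases before the start site are given 5′ to 3′ on the strand of the gene, with annotated exon bases removed, and capitals mark CACGTG. They are chr6:114670846-114671095 (plus strand) for Atg7, where the RefSeq start lies inside the gene's longer GENCODE span, chr10:44268089-44268338 (plus) for Atg5, chr7:138909520-138909756 (minus) for Bnip3, chr11:61855093-61855342 (minus) for Ulk2, chr8:111940453-111940702 (plus) for Gabarapl2 and chr2:5064118-5064367 (minus) for Optn, in GRCm38.p6.
Atg7: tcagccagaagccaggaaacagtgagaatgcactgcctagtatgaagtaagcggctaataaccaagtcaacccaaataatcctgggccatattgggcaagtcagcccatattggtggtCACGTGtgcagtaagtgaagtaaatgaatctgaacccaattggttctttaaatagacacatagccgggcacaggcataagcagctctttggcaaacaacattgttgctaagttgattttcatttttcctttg
Atg5: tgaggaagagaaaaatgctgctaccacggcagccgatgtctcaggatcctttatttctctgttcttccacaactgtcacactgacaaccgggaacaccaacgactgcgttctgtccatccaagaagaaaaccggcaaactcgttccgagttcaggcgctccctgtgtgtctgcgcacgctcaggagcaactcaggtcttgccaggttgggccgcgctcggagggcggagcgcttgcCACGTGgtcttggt
Bnip3: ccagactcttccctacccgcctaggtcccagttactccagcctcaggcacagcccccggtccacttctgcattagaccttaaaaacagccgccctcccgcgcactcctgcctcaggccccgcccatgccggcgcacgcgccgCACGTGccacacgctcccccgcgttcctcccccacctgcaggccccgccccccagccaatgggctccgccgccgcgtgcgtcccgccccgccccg
Ulk2: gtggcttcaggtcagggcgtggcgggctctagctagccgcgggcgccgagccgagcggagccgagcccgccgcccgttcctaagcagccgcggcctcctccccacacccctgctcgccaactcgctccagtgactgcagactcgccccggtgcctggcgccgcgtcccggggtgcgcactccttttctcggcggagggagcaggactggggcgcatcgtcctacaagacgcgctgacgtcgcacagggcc
Gabarapl2: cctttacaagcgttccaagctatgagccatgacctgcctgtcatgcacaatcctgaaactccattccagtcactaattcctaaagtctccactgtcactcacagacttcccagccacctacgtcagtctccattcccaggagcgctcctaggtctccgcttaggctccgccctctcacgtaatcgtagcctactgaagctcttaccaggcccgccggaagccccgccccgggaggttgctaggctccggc
Optn: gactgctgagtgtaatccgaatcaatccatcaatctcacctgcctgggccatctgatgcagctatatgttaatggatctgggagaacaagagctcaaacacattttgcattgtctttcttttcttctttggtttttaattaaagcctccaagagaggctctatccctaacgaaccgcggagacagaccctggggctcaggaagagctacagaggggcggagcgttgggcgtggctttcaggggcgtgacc
CACGTG began at position -132 from the start site in Atg7, at -14 in Atg5 and at -108 in Bnip3. Of the 5 members with the motif, Atg5, Atg7 and Bnip3 were higher under HFD+eRapa than ND+veh, and Atg3 and Atg14 did not differ in any comparison. In that comparison with ND+veh, 21.1% of the set and 6.93% of all genes were higher. The calls of Atg5 and Bnip3 there were each lost in 14 of 24 fits without 1 library. Atg5 was also higher under HFD+veh than ND+veh. Whether the motif goes with a difference was not tested. The matches describe letters in the windows and were not tested for binding.

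Of the 5 Atg8 genes, Map1lc3a and Gabarapl1 were lower on the high-fat diet, and Map1lc3a and Gabarapl2 were higher with eRapa than with vehicle on that diet. Of all genes, 9.86% were lower on the diet and 10.9% higher with eRapa on it. Map1lc3b, whose protein is the common marker of autophagosomes, and Gabarap did not differ in any comparison. Map1lc3a (ENSMUSG00000027602.9, chr2:155276297-155278073, plus strand), a close relative of Map1lc3b, had 25.6, 34.1 and 42.2 CPM in ND+veh, 6.32, 24.7 and 30.9 CPM in HFD+veh and 29.3, 46.7 and 50.5 CPM in HFD+eRapa. All but 1 of the eRapa animals lay above every HFD+veh animal, and 5 of 7 HFD+veh animals lay below every ND+veh animal.

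The log2 fold change of Map1lc3a was -0.67 (SE 0.21, adjusted p = 0.0237) for the diet and 0.99 (SE 0.21, adjusted p = 0.00156) for HFD+eRapa against HFD+veh, the largest rise in the set. The lowest value belonged to HFD+veh replicate 6. Without that animal the differences were -0.54 (adjusted p = 0.0146) and 0.84 (adjusted p = 0.000379). With the immune marker score in the model they were -0.43 (adjusted p = 0.242) and 0.71 (adjusted p = 0.0522). Against ND+veh the eRapa animals gave 0.32 (95% confidence interval -0.09 to 0.72).

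Gabarapl1 had medians of 276, 224 and 237 CPM and a diet difference of -0.41 (SE 0.15, adjusted p = 0.0461). That call was lost in 14 of 24 fits without 1 library, with adjusted p up to 0.092, and 28.3% of its exon bases are shared with 1700101I11Rik on the opposite strand. Gabarapl2 had medians of 36.4, 38.1 and 49.1 CPM and was higher under HFD+eRapa than ND+veh by 0.40 log2 units (SE 0.11, adjusted p = 0.0138) and than in HFD+veh by 0.30 (SE 0.11, adjusted p = 0.0434), the last of which was lost in 12 of 24 such fits (adjusted p up to 0.09). Map1lc3b had medians of 92.7, 86.8 and 106 CPM, with intervals of -0.23 to 0.19 for the diet and -0.01 to 0.40 for eRapa on the high-fat diet. Gabarap, with medians of 154, 188 and 175 CPM, gave estimates from 0.06 to 0.14.

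Among the soluble receptors, Optn was higher with eRapa, Sqstm1 was lower under HFD+eRapa than ND+veh, and Nbr1 did not differ. Optn encodes optineurin, which ties ubiquitin-marked cargo, including damaged mitochondria, to Atg8 proteins. It had 57.4, 68.8 and 73.6 CPM in ND+veh, 41.2, 64.6 and 96.8 CPM in HFD+veh and 75.1, 101 and 106 CPM in HFD+eRapa. Every eRapa animal exceeded every ND+veh animal, and 5 of 9 exceeded every HFD+veh animal. Optn differed by 0.49 (SE 0.12, adjusted p = 0.00682) against ND+veh and 0.46 (SE 0.13, adjusted p = 0.00761) against HFD+veh. These calls held without any 1 library, and with the immune marker score in the model the difference from HFD+veh was 0.23 (adjusted p = 0.275).

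Sqstm1, the receptor for ubiquitin-marked proteins that is itself degraded with its cargo, had 415, 555 and 787 CPM in ND+veh, 276, 452 and 578 CPM in HFD+veh and 370, 429 and 468 CPM in HFD+eRapa. All 9 eRapa animals were below the ND+veh median, and 4 were below every ND+veh animal. Sqstm1 differed by -0.40 (SE 0.12, adjusted p = 0.0312) for HFD+eRapa against ND+veh, -0.32 (adjusted p = 0.0736) for the diet and -0.08 (95% confidence interval -0.35 to 0.18) between the high-fat groups. The call was lost without ND+veh replicate 4 or 6 or HFD+eRapa replicate 2, 5 or 6 (adjusted p up to 0.074). In the annotation 17.3% of its exon bases are also exon bases of Mrnip on the opposite strand. Nbr1, a related receptor, had medians of 207, 203 and 234 CPM and estimates of 0.04 to 0.11.

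The 4 mitophagy genes differed in 1 direction each or not at all. Bnip3 and Bnip3l encode receptors in the outer mitochondrial membrane, Fundc1 a further receptor there, and Pink1 the kinase that marks damaged mitochondria. Bnip3 had medians of 123, 127 and 171 CPM in ND+veh, HFD+veh and HFD+eRapa and was higher under HFD+eRapa than ND+veh by 0.44 log2 units (SE 0.14, adjusted p = 0.0422). That call was lost in 14 of 24 fits without 1 library (adjusted p up to 0.12), and 22.3% of its exon bases are shared with Gm45507 on the opposite strand.

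Fundc1 (chrX:17556564-17572325, minus strand) had 6.98, 10.1 and 15.5 CPM in ND+veh, 5.95, 14.9 and 40.2 CPM in HFD+veh and 5.27, 7.20 and 13.5 CPM in HFD+eRapa. It was lower under HFD+eRapa than HFD+veh (log2 fold change -0.96, SE 0.29, adjusted p = 0.0155). The highest value belonged to HFD+veh replicate 6, and without that animal the difference was -0.53 (adjusted p = 0.126). With the immune marker score in the model it was -0.06 (adjusted p = 0.909). The HFD+veh animals with the lowest macrophage sums, replicates 1 and 2 at 165 and 166 CPM, also had the lowest Fundc1 of their group, 7.83 and 5.95 CPM. Whether other cell types have a part in the Fundc1 values was not tested.

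Pink1 had medians of 203, 194 and 217 CPM and did not differ, with estimates of -0.40 (adjusted p = 0.136) for the diet and 0.42 (adjusted p = 0.106) for eRapa on that diet. HFD+veh replicate 6 had 52.9 CPM of Pink1, against 124 to 209 CPM in the other HFD+veh animals. Bnip3l had medians of 74.3, 71.7 and 78.7 CPM and estimates of 0.05 to 0.11.

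Levels were compared between genes only per length, in FPKM. Median FPKM over the 24 animals ran from 4.28 for Wipi1 to 223 for Sqstm1. The highest were Sqstm1, Gabarapl1 (158 FPKM), Gabarap (142 FPKM), Bnip3 (95.03 FPKM) and Pink1 (84.7 FPKM), all receptors, Atg8 proteins or mitophagy genes. At 50 FPKM or more were 5 members, 17 lay from 10 to 50 FPKM and 15 below 10 FPKM. The lower part held the lipid kinase complex except Becn1 (28.9 FPKM), with Uvrag at 6.50, Atg14 at 5.40, Pik3c3 at 5.24, Pik3r4 at 4.75 and Ambra1 at 4.38 FPKM.

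Map1lc3b was listed at 0 FPKM in all 24 animals although it had 1549 to 2662 counts in them, so no FPKM level is given for it. It was 1 of 36 genes with at least 100 counts in every library and 0 FPKM in all of them, of 7438 genes with that many counts. Of the 36 genes, 32 were on chromosome 8 between bases 119910360 and 124048505, where all 32 genes with that many counts were at 0 FPKM. None of the 356 such genes before this stretch was.

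**Figure D4:**
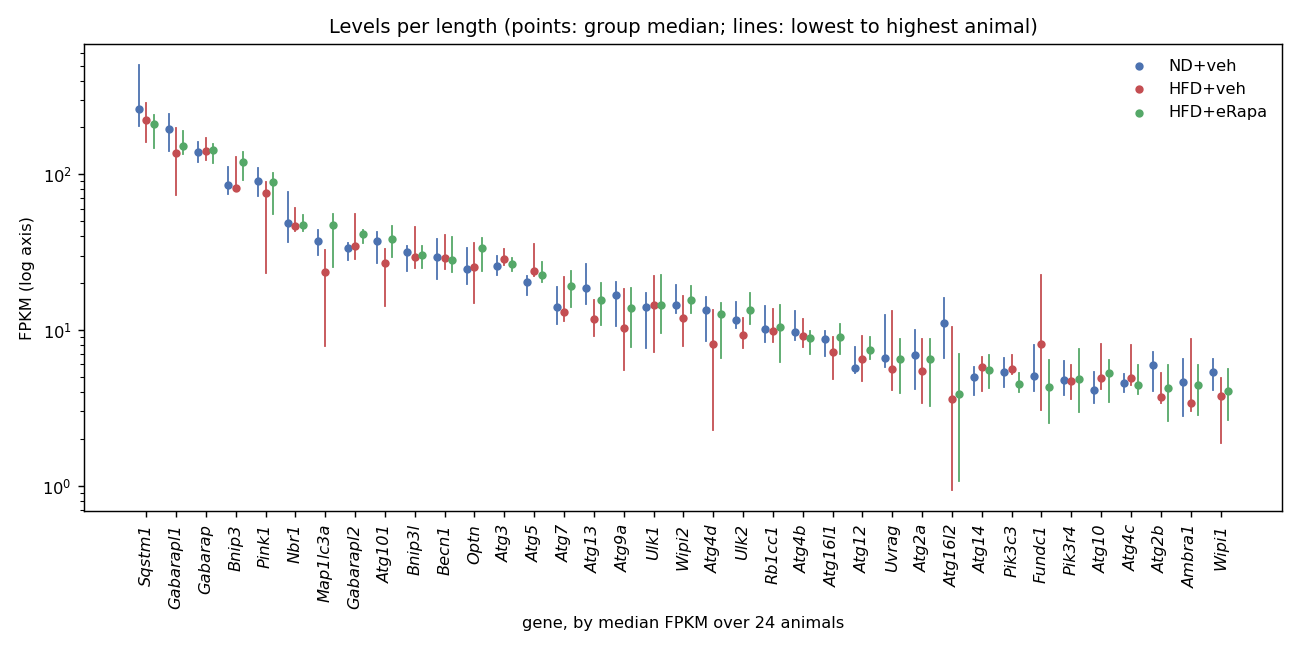
FPKM (log axis) of 37 members, ordered by the median over 24 animals, with the group median as a point and the range over animals as a line. Sqstm1 is highest and Wipi1 lowest, and the HFD+veh lines reach far down for Pink1, Map1lc3a, Atg4d and Atg16l2; Map1lc3b is not drawn because it is listed at 0.

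Another 57 genes of the pathway, in 4 lists taken from general knowledge, were counted beside the members. In HFD+veh against ND+veh, 9 were higher and 5 lower, in HFD+eRapa against HFD+veh 8 higher and 10 lower, and in HFD+eRapa against ND+veh 7 higher and 4 lower. That was 24.6%, 31.6% and 19.3% of the 57 genes, against 25.9%, 32.0% and 13.5% of all genes tested. Their median log2 fold changes were 0.02, 0.01 and 0.02. With eRapa on the high-fat diet, 14.0% of them and 28.9% of the 38 members were higher, against 10.9% of all genes tested. Members and lists were chosen with earlier results of these data known, so this contrast is no independent support for a direction.

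Among 16 other initiation and nucleation genes, 5 were higher and 3 lower for the diet, and 2 higher and 5 lower for eRapa on that diet. That was 50% and 43.8% of the list, against 25.9% and 32.0% of all genes. The largest differences were those of Bcl2, a Beclin inhibitor, with means of 0.769, 3.64 and 0.793 CPM in ND+veh, HFD+veh and HFD+eRapa, and Prkaa1, a catalytic subunit of the energy sensor AMPK, with 11.9, 21.3 and 11.2 CPM. The HFD+veh animals ran from 0.21 to 10.2 CPM for Bcl2 and from 12.7 to 48.2 CPM (median 18.0 CPM) for Prkaa1. Prkaa1 differed by 0.84 (SE 0.22, adjusted p = 0.00892) for the diet and -0.93 (SE 0.21, adjusted p = 0.00269) for eRapa on that diet. Those of Bcl2 were 2.23 (SE 0.68, adjusted p = 0.0208) and -2.18 (SE 0.65, adjusted p = 0.0135).

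Of 16 genes for fusion with lysosomes, 2 were higher for the diet, 1 higher and 2 lower for eRapa on the diet, and 2 higher and 1 lower for HFD+eRapa against ND+veh. That was 12.5%, 18.8% and 18.8% of the list, against 25.9%, 32.0% and 13.5% of all genes. Vps41, a subunit of the HOPS tether, had means of 46.9, 71.2 and 79.2 CPM, and all eRapa animals were above all ND+veh animals (log2 fold change 0.76, SE 0.14, adjusted p = 0.00065). Plekhm1, an adaptor between lysosomes and autophagosomes, had 21.7, 29.2 and 17.8 CPM and was lower under HFD+eRapa than HFD+veh (log2 fold change -0.71, SE 0.16, adjusted p = 0.00211).

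Of 15 other selective receptors, 1 was higher and 1 lower for the diet, and 4 were higher and 1 lower for eRapa on the diet. That was 13.3% and 33.3% of the list, against 25.9% and 32.0% of all genes. Stbd1, a receptor for glycogen, had means of 90.6, 57.2 and 98.1 CPM, with log2 fold changes of -0.66 (SE 0.15, adjusted p = 0.00392) and 0.78 (SE 0.15, adjusted p = 0.00069). Retreg1, a receptor for the endoplasmic reticulum, had 68.2, 77.2 and 45.2 CPM, and all eRapa animals were below all HFD+veh animals (log2 fold change -0.77, SE 0.13, adjusted p = 0.00034).

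Of 10 transcription factors known to regulate autophagy genes, Ppara was higher under HFD+eRapa than HFD+veh, with means of 73.4, 57.4 and 120 CPM and a log2 fold change of 1.06 (SE 0.24, adjusted p = 0.00236). Mitf was lower in that comparison, with means of 7.80 CPM in HFD+veh (2.50 to 19.5 CPM) and 4.03 CPM in HFD+eRapa and a log2 fold change of -0.95 (SE 0.30, adjusted p = 0.018), and Creb1 was lower as well. For the diet, Hif1a was higher and Tfe3 lower. So 20% of the list differed for the diet and 30% for eRapa on that diet, against 25.9% and 32.0% of all genes. Fits without single animals were run for the members only, and no values with the immune marker score are given for these further genes.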

How the data were processed

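Polyadenylated RNA of hepatocytes from 24 mice was sequenced, and groups were taken from the sample titles. The authors aligned reads with STAR to mm10 (GENCODE M23). The deposited counts are raw and come from HTSeq 0.11.2, run by the authors, and its strand setting is not given in the sources used here. The deposited FPKM values were made by the authors with Cufflinks. All libraries carry 1 batch label, and all 48 columns matched a sample.

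Counts were tested with edgeR 4.0.16 in R 4.3.3 (filterByExpr, TMM, glmQLFit robust, glmQLFTest) in 1 fit of 24 libraries, with Benjamini-Hochberg adjustment over 13847 genes. SE was taken as the size of the log2 fold change over the root of F, and log2 CPM used a prior count of 2. The alternatives were DESeq2 1.42.0, its size factors in edgeR, no filter, at least 10 counts in every library, only the groups compared, a replicate block, an immune marker score (15 of 28 listed markers passed the filter), limma 3.58.1 on log2(FPKM + 1) or log2(FPKM + 0.1) for genes with a mean of at least 0.5 FPKM, and leaving out each library. Scripts were tested on simulated data. The smallest chi-square per degree of freedom between libraries of 1 group was 12.7, so none was a copy. P-values weigh the difference between groups against the spread between animals.

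Coordinates are GENCODE M21 on GRCm38, the assembly of mm10, and promoters are RefSeq on GRCm38.p6. Members named are those called in any comparison plus Ulk1, Becn1, Map1lc3b and Sqstm1, with the others by name where at most 5 remained in a role, and the 2 largest calls of each further list. The members and lists were chosen with earlier results of these data known, so they are no independent support for a direction.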

Additional observations from a re-analysis of the deposited data

Results flagged for a closer look

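For the 24 members named by the rule, the lowest and highest animal of each group was compared with its nearest neighbour (Dixon's criterion on log2 CPM). Of 72 groups, 4 held an animal that stood apart, and chance would give about 3.6. Map1lc3a had 6.32 CPM in HFD+veh replicate 6, with 18.1 CPM in the next lowest animal. Atg7 had 22.8 CPM in the same animal, with 32.0 CPM in the next. Ambra1 had 15.6 CPM in ND+veh replicate 8, the ND+veh animal with the highest macrophage marker sum (1185 CPM), with 21.9 CPM in the next. Atg5 had 81.9 CPM in HFD+eRapa replicate 2, the eRapa animal with the highest macrophage marker sum (995 CPM), with 59.0 CPM in the next. The part of other cell types in these values was not tested.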

How the results depend on the processing

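No member call reversed its direction under any alternative, and DESeq2 kept all 32 calls. For HFD+veh against ND+veh, the 9 calls (25.9% of all genes called) became 5 without the expression filter (9.62%), 5 with only the groups compared (17.4%), 2 with the immune marker score (8.20%) and 4 with limma on unfiltered FPKM (4.91%). Leaving out 1 library gave 5 (without HFD+veh replicate 6) to 15 (without HFD+veh replicate 2), and 14 without HFD+veh replicate 1, with 15.1%, 32.0% and 30.4% of all genes. For HFD+eRapa against HFD+veh, the 13 calls (32.0%) became 3 with the immune marker score (6.30%) and 7 with limma on unfiltered FPKM (8.83%), and 10 to 13 without 1 library. For HFD+eRapa against ND+veh, the 10 calls (13.5%) became 5 without the filter (4.56%), 6 with the replicate block (11.4%), 3 with limma on log2(FPKM + 1) (9.76%), 3 on log2(FPKM + 0.1) (10.2%) and 1 on unfiltered FPKM (3.47%). Without 1 library they were 5 to 10, and 5 or 6 without ND+veh replicates 2 to 6, HFD+veh replicates 3 or 4, or HFD+eRapa replicates 2 to 5 or 8. The causes were not tested. In log2(FPKM + 1) and log2(FPKM + 0.1) the median of all genes in that comparison was -0.09 and -0.11, and that of the members -0.02 in each.

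Replicate numbers name different animals. Same-numbered animals did not deviate together in all pairs (mean r 0.32, -0.24 and -0.20 in the 3 comparisons, and 3 of 7, 0 of 7 and 0 of 8 correlated best with their own number). In 5 of 7, 2 of 7 and 2 of 8 pairs r was over 0.1, with the highest at 0.73, 0.49 and 0.37. The samples were not treated as paired, and these correlations cannot tell whether same-numbered animals were handled together. The replicate block gave 6, 9 and 6 calls, with 17.8%, 18.3% and 11.4% of all genes.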
